A study of Mus musculus with 6 samples.

Results

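The genes described here carry ions, acid, base and organic anions across membranes, or set how fast others do so. Members were chosen by gene symbol alone. They are the bicarbonate and chloride exchangers (Slc4, Slc26), the sodium-proton exchangers (Slc9), the cation-chloride cotransporters (Slc12) with the WNK kinases, the epithelial sodium channel (Scnn1), the sodium pump and its FXYD partners, *Cftr* and the other chloride channels, the carbonic anhydrases, the sodium-calcium exchangers (Slc8, Slc24) and the Slc13, Slc17, Slc20, Slc22 and Slc34 carriers. The PDZ adaptor *Slc9a3r1* is not a member. In all, 162 of 23420 genes fit this rule.

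Uterine RNA was sequenced from C57BL/6J mice aged 8 weeks at day 4.5 of pseudopregnancy, which followed mating with vasectomized males, so no embryo was present. The control mice carried floxed *Foxo1* alleles and no Cre (*Foxo1f/f*). The mutant mice carried the same alleles with Cre recombinase at 1 copy of the *Pgr* locus (PgrCre/+ Foxo1f/f, named *Foxo1d/d* below), so that *Foxo1* is lost where PGR is or has been expressed, which includes uterine epithelium, stroma and muscle and also tissues outside the uterus such as the ovary and pituitary. Each genotype had 3 libraries, each made from the pooled RNA of 2 mice.

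Counts were deposited only as the authors' means per gene and genotype, so no spread between pools could be computed and no test between genotypes was made here. The authors' own comparison in the same table was not used. The mean library of *Foxo1f/f* held 26125014 counts, that of *Foxo1d/d* 27257963. Where 2 values are joined by "and", *Foxo1f/f* comes first. The main quantity is the ratio of *Foxo1d/d* to *Foxo1f/f* on the log2 scale, taken after 1 was added to each mean count and each was divided by its genotype's total. The range in brackets is an exact 95% Clopper-Pearson interval of the ratio of summed counts, which covers counting error only. A gene is called higher or lower where its mean count over both genotypes was at least 10 and its ratio was at least 1.5-fold. *Foxo1* itself, the deleted gene, averaged 3941 and 1456 counts and stood at a log2 ratio of -1.50 (-1.55 to -1.45). That count runs over all exons of the gene, so transcripts that lack only the deleted part can still add to it. The tissue showed its own markers in both genotypes, with all 6 stromal and all 6 smooth muscle markers and all 8 epithelial markers above the count minimum.

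The epithelium makes and removes the fluid in the uterine lumen: chloride leaves the cell on the luminal side through channels such as CFTR and water follows, while sodium uptake through the epithelial sodium channel and export by the basolateral sodium pump draw fluid back. Carbonic anhydrases supply the bicarbonate and protons that the exchangers trade for chloride and sodium. Progesterone and estrogen shift this balance, and uptake of luminal fluid accompanies the closing of the lumen before implantation.

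In *Foxo1d/d* uteri, RNA of 4 carbonic anhydrases, the sodium pump modulator *Fxyd4*, *Cftr* and the β subunit of the sodium channel was higher, while that of 3 anion exchangers, the γ subunit of the sodium channel and the dicarboxylate carrier *Slc13a2* was lower. RNA of a whole organ does not tell fewer cells of a type from less RNA per cell, which holds for every ratio here. Of the 162 members, 119 reached the count minimum. Among these, 18 were at least 1.5-fold higher in *Foxo1d/d* (15.1%) and 9 at least 1.5-fold lower (7.56%). Among all 15702 genes that reached the minimum, 5.45% were higher, 3.51% lower and 8.96% either. The members did not lean to one side as a whole, with a median log2 ratio of 0.02, the same as over all genes. Their median ratio without regard to sign was 0.26, against 0.14 over all genes. All 27 called members had a counting interval that did not include 0. The median mean count was 101 for the called members and 661 for those within 1.5-fold. Of the called members, 13 had a level under 1 CPM per kb of exon (CPM, counts scaled to a library of 1000000) in both genotypes, and 5 had a level of at least 10 in either genotype.

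**Figure D1:**
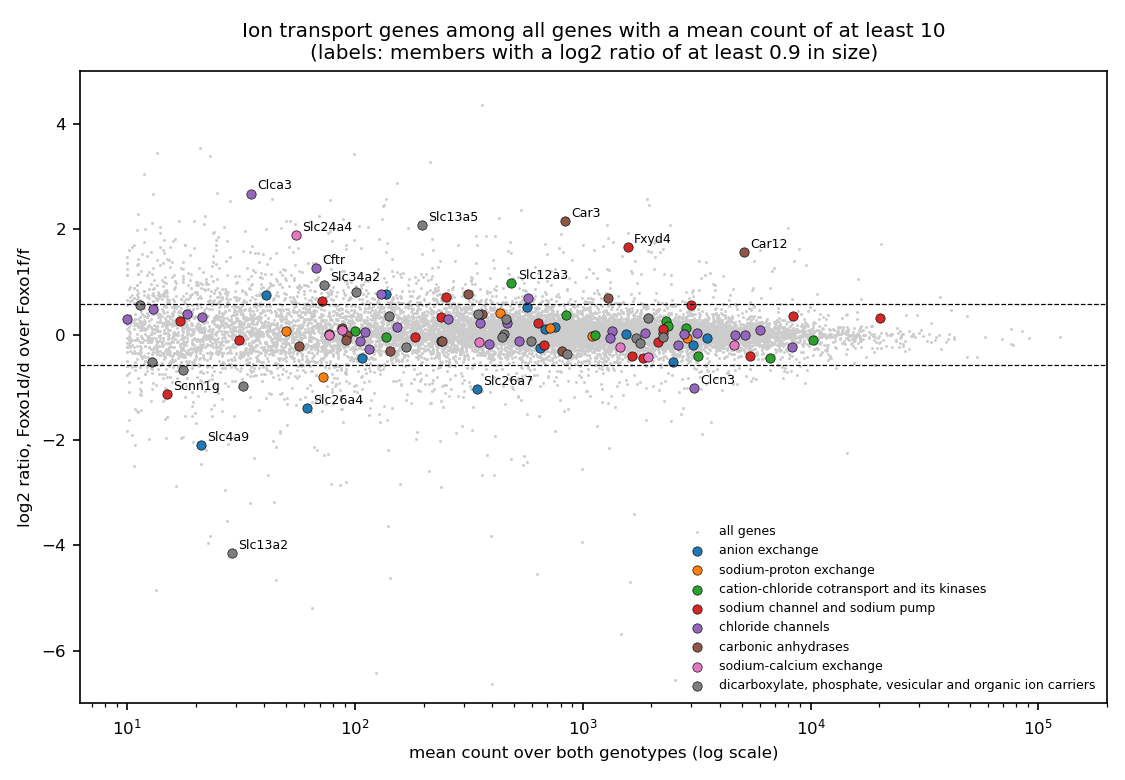
Log2 ratio (*Foxo1d/d* to *Foxo1f/f*) against the mean count over both genotypes on a log axis, for every gene whose count averaged at least 10 (grey) and for the ion transport genes, coloured by role. Dashed lines mark 1.5-fold. *Car12* and *Fxyd4* stand above the lines at mean counts over 1000, and *Slc13a2* has the lowest ratio of the coloured points.

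The other 43 members lay under the count minimum, at mean counts of up to 9.00, and 6 of them had no count at all. A count of 0 leaves room, at 95% confidence, for up to 3 counts over the libraries of a genotype, or 0.0383 and 0.0367 CPM. Among them were 14 Slc22 and 6 Slc17 carriers, families best known from kidney, liver and brain. *Slc9a3*, the apical sodium-proton exchanger of gut and kidney, was among them. It had mean counts of 1.00 and 0.33, and its log2 ratio of -0.65 had an interval from -7.36 to 1.99, so that no difference could be read at this depth.

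Levels were compared between genes only per length, as CPM per kb of exon. Among the highest on that scale were *Atp1b3*, a β subunit of the sodium pump, at 138 and 177, and *Clic1*, which encodes a protein found both in the cytosol and in membranes, at 119 in each genotype. *Fxyd1* stood at 81.7 and 74.2 and *Clic4* at 81.6 and 69.6. The 10 members with the highest levels per length held 46.2% and 49.0% of the members' summed level. That summed level was 1719 and 1869. Some of the genes described below held different places in the order of the members in each genotype. *Car12* held place 18 in *Foxo1f/f* and place 4 in *Foxo1d/d*, *Fxyd4* places 34 and 7, and *Car3* places 52 and 17. *Clcn3* held places 20 and 42, and *Slc13a2*, at far lower levels, places 93 and 128.

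**Figure D2:**
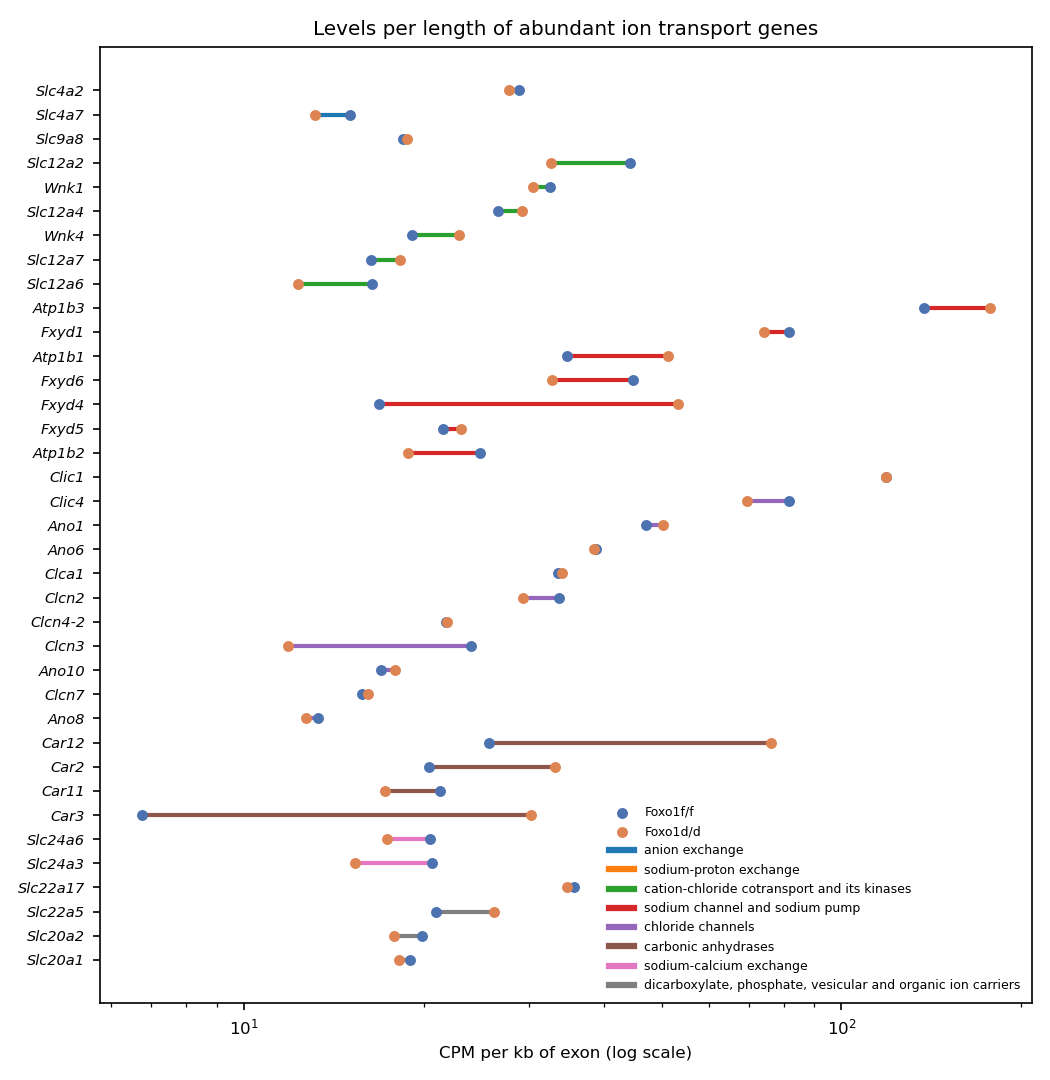
Levels per length of members among the 40 with the highest mean over both genotypes, as CPM per kb of exon on a log axis. Blue points are *Foxo1f/f*, orange points *Foxo1d/d*, and the colour of the joining line gives the role. *Atp1b3* lies farthest right, and the longest lines belong to *Car3*, *Fxyd4* and *Car12*.

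The sodium pump and the sodium channel work in series across an absorbing epithelium. Of the 18 genes of this group that reached the count minimum, 3 were called higher (16.7%) and 1 lower (5.56%), beside 5.45% and 3.51% of all genes, and the median log2 ratio was 0.16. *Fxyd4* encodes a small membrane protein, also named CHIF, that binds the pump and raises its affinity for sodium. Its counts averaged 732 and 2413, a fold of 3.16, or a log2 ratio of 1.66 (1.59 to 1.73). Among the 7 FXYD genes its share of the summed level per length was 9.08% and 26.3%. The other FXYD genes were within 1.5-fold, and the muscle and stromal form *Fxyd1* held the largest share in both genotypes, at 44.0% and 36.7%.

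Of the 4 β subunits of the pump, which carry it to the cell surface, 3 reached the count minimum and were within 1.5-fold. The fourth, *Atp1b4*, averaged 0.33 and 6.33 counts, under that minimum, and stood at a log2 ratio of 2.40 (1.53 to 9.56). *Atp1b1*, the β subunit that epithelia use most, had a log2 ratio of 0.56 (0.52 to 0.61) and mean counts of 2340 and 3609, just under the 1.5-fold line. *Atp1b3* was at 0.36. *Atp1b2*, known from muscle and glia, had a ratio of the other sign, at -0.40. Beside it, all 6 smooth muscle markers had log2 ratios under 0, with a median of -0.30 and summed levels of 6561 and 5287 CPM. *Tagln* was the most abundant per length over both genotypes, and no marker was at 0. The part of smooth muscle in the ratio of *Atp1b2* was not tested.

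The 3 subunits of the epithelial sodium channel had unlike ratios. *Scnn1b*, the β subunit, averaged 183 and 316 counts, which gives a log2 ratio of 0.72 (0.57 to 0.88). *Scnn1g*, the γ subunit, had mean counts of 20.7 and 9.33 and, on the log2 scale, a ratio of -1.13 (-1.91 to -0.54). *Scnn1a*, the α subunit without which the channel does not conduct, lay between them with a log2 ratio of 0.33 (0.18 to 0.48) and mean counts of 207 and 271. Per length, β was the most abundant subunit and γ the scarcest in both genotypes. The γ subunit made up 5.28% of the channel's summed level in *Foxo1f/f* and 1.59% in *Foxo1d/d*. *Scnn1b* and *Scnn1g* are direct neighbours on chromosome 7, with no other protein-coding gene between them, and their ratios had opposite signs. Their promoters are shown for that reason, in lower case, as neither holds a match to the motifs searched for below. They come from RefSeq on GRCm38.p6, the build of the reference used here and not of the counts, which hold no coordinates, and run from 250 bases before to 50 after the start listed for each promoter, which for *Scnn1g* lies 59 bases inside the RefSeq gene record and for *Scnn1b* at its first base. That of *Scnn1b* lies on the plus strand at chr7:121864788-121865087 and that of *Scnn1g* on the plus strand at chr7:121734229-121734528.
Scnn1b: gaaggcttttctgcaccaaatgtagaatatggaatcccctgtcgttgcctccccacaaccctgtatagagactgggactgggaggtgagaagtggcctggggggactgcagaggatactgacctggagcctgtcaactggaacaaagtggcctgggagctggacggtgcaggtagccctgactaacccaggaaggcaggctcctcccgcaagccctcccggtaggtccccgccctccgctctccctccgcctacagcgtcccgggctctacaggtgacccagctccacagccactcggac
Scnn1g: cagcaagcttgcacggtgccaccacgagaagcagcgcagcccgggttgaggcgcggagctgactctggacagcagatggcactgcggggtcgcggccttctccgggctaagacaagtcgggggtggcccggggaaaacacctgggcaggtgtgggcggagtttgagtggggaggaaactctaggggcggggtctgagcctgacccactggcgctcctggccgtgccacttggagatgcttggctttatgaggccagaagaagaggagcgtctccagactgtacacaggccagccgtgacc

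Of the role groups, carbonic anhydrases had the largest share of higher genes. Of the 12 that reached the count minimum, 4 were called higher and none lower, against 5.45% and 3.51% of all genes, while the median over the 12 was 0.07. The summed level of the family per length was 97.3 and 182. *Car12* encodes a membrane-bound enzyme that faces the extracellular space. Its counts averaged 2495 and 7710, a fold of 2.96, or a log2 ratio of 1.57 (1.53 to 1.60). With levels per length of 25.7 and 76.1, it was the most abundant carbonic anhydrase in both. *Car2*, the fast cytosolic enzyme of secreting epithelia and red blood cells, stood at a log2 ratio of 0.70 (0.64 to 0.77), with mean counts of 953 and 1619. *Car13*, also cytosolic, averaged 225 and 401 counts, which gives a log2 ratio of 0.77 (0.64 to 0.91). The other 8 carbonic anhydrases above the minimum had log2 ratios from -0.32 for *Car4* to 0.39 for *Car5b*.

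*Car3*, a cytosolic enzyme of low activity that is abundant in adipocytes and skeletal muscle, averaged 296 and 1381 counts, a log2 ratio of 2.16 (2.05 to 2.27) and a fold of 4.47. Markers of adipocytes lay on the same side. Of the 8 listed, 7 were called higher, with log2 ratios from 1.70 for *Lep* to 2.19 for *Cidec*. The exception was *Plin4* at -0.01, with mean counts of 651 and 674, or 24.9 and 24.7 CPM. The list's summed level was 41.9 and 87.0 CPM. Its most abundant gene per length over both genotypes was *Cfd*, and none of its genes was at 0. Of the 6 skeletal muscle markers, *Tnni2* (0.24), *Mylpf* (0.11) and *Tnnt3* (0.09) had log2 ratios above 0, *Acta1* (-0.02) and *Ckm* (-0.67, the only one called) below, and *Myh4* had no count. Their summed level was 117 and 118 CPM, and *Acta1* was the most abundant per length. The parts of adipose tissue and skeletal muscle in the ratio of *Car3* were not tested.

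*Car13*, *Car1*, *Car3* and *Car2* follow each other on chromosome 3 in this order. Of these neighbours, 3 were called higher, and the fourth, the red blood cell enzyme *Car1*, had mean counts of 0 and 0.67. Red blood cells were followed through a list of 9 genes, of which 8 were found. The adult β-globin gene *Hbb-bs*, listed under its older name *Beta-s*, was the most abundant of them per length. It was called higher at a log2 ratio of 1.16 (1.10 to 1.22), with mean counts of 1087 and 2528. *Alas2*, the heme synthesis gene of red cell precursors, averaged 147 and 403 counts, a log2 ratio of 1.39. The globin genes *Hba-a1*, *Hba-a2*, *Hbb-b1* and *Hbb-b2* were all listed at 0, and the reason was not tested. The summed level of the list was 47.3 and 108 CPM. The anion exchanger of the red cell membrane, *Slc4a1*, had mean counts of 3.33 and 8.33. The part of blood in the ratio of *Car2* was not tested.

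Chloride channels form the secreting side of this gene set. Of the 28 genes that reached the count minimum, 4 were called higher (14.3%) and 1 lower (3.57%), beside 5.45% and 3.51% of all genes, with a median log2 ratio of 0.07. *Cftr*, the cAMP-regulated chloride and bicarbonate channel of luminal membranes, averaged 38.0 and 97.0 counts, a log2 ratio of 1.27 (0.97 to 1.62) and a fold of 2.45. Its level per length was low in both genotypes, at 0.19 and 0.47. *Ano1*, a channel opened by calcium, had levels per length of 47.0 and 50.3 and a log2 ratio of 0.10 (0.07 to 0.13). *Clic1* had the highest level per length of this group, and its log2 ratio of 0.00 (-0.03 to 0.04) changed sign with the scaling.

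The highest ratio of all members above the count minimum belonged to the gene listed as *Clca3*, with mean counts of 8.33 and 61.3, or a log2 ratio of 2.68 (2.21 to 3.48). By its Entrez number, 23844, this gene is now named *Clca1*. It encodes a secreted protein of mucus-producing goblet cells that acts on calcium-activated chloride channels and is not thought to be a channel itself. The gene listed as *Clca1*, now named *Clca3a1*, held 87.6% of the CLCA genes' summed level per length in *Foxo1f/f* and 87.4% in *Foxo1d/d*, at a log2 ratio of 0.02. The CLCA genes lie close together on chromosome 3 and resemble each other, so that shared reads can blur their counts.

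The intracellular CLC exchangers differed among themselves. *Clcn3*, a chloride-proton exchanger of endosomes and synaptic vesicles, had mean counts of 4050 and 2085 and, on the log2 scale, a ratio of -1.02 (-1.06 to -0.98). Among the 9 called-lower members it had the highest level per length in both genotypes. *Clcn5*, its relative in the endosomes of absorbing epithelia, stood at a log2 ratio of 0.69 (0.59 to 0.80), with mean counts of 427 and 721. *Ano5*, an intracellular member of the anoctamin family known from muscle, was also called higher at 0.76 (0.56 to 0.99), with mean counts of 93.3 and 166.

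**Figure D3:**
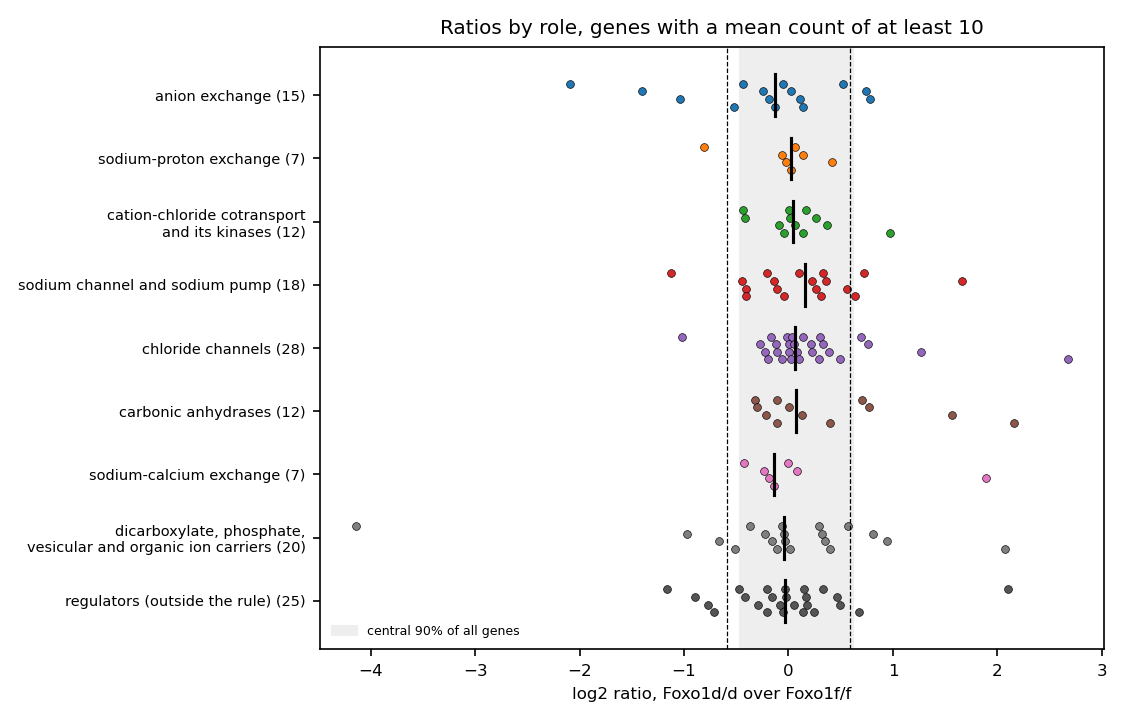
Log2 ratios (*Foxo1d/d* to *Foxo1f/f*) for genes whose count averaged at least 10, one point per gene, by role, with the number of genes in brackets and the median as a black bar. The grey band holds the central 90% of all genes, from -0.47 to 0.62, and dashed lines mark 1.5-fold. All 4 carbonic anhydrases past the lines lie on the right, and anion exchangers lie past both lines.

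Of the 15 exchangers of chloride for bicarbonate and other anions that reached the count minimum, 3 were called lower (20%) and 2 higher (13.3%), beside 3.51% and 5.45% of all genes. Their median log2 ratio was -0.13. *Slc26a7*, an anion exchanger and chloride channel known from kidney and stomach, averaged 456 and 231 counts, which gives a log2 ratio of -1.04 (-1.18 to -0.91). *Slc26a4*, which encodes pendrin, the exchanger of chloride for bicarbonate and iodide, had mean counts of 88.3 and 34.3 and, on the log2 scale, a ratio of -1.40 (-1.77 to -1.09). *Slc4a9*, an exchanger of the same intercalated cells of the kidney that use pendrin, stood at a log2 ratio of -2.09 (-2.94 to -1.56), with mean counts of 34.3 and 7.67. These 3 were lower by at least 2-fold.

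The higher anion exchangers were *Slc26a9* and *Slc4a11*. *Slc26a9*, a chloride transporter and channel of airway and stomach, averaged 29.3 and 52.0 counts, which gives a log2 ratio of 0.74 (0.38 to 1.16). *Slc4a11*, which moves protons or their equivalents and not bicarbonate, had mean counts of 98.0 and 176 and, on the log2 scale, a ratio of 0.78 (0.57 to 0.99). The most abundant gene of the group per length, the basolateral exchanger *Slc4a2*, had levels of 28.9 and 27.8 and a log2 ratio of -0.06 (-0.10 to -0.02). Of its exon bases, 14.9% also belong to *Fastk* on the other strand. *Slc4a4*, the sodium-bicarbonate cotransporter that loads the cell with bicarbonate from the blood side, stood at a log2 ratio of -0.52 (-0.57 to -0.47), with mean counts of 2883 and 2097. *Slc26a6*, a luminal exchanger, lay at 0.14 (0.06 to 0.23) with mean counts of 704 and 810.

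Of 7 sodium-proton exchangers above the minimum, 1 was called (14.3%), beside 8.96% of all genes. It was the apical form *Slc9a2*, with a log2 ratio of -0.81 (-1.11 to -0.53) and mean counts of 91.3 and 54.0. Of the 12 cation-chloride cotransporters and WNK kinases above the minimum, 1 was called (8.33%), the sodium-chloride cotransporter *Slc12a3*, which is best known as the thiazide target of the kidney. Its mean counts were 319 and 654, a log2 ratio of 0.97 (0.86 to 1.09). *Slc12a2*, which loads secreting cells with chloride and was the most abundant of the group per length, averaged 7533 and 5796 counts, which gives a log2 ratio of -0.44 (-0.47 to -0.41). *Wnk1*, the kinase that switches these cotransporters between states, had a log2 ratio of -0.09 (-0.12 to -0.07).

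The largest ratios in both directions among the carriers of organic anions and phosphate fell within a single family, Slc13, which takes up citrate and dicarboxylates with sodium. *Slc13a2*, the luminal dicarboxylate carrier of kidney and gut, averaged 55.3 and 2.33 counts. Its log2 ratio of -4.14 (-5.97 to -3.55) was the lowest of the members above the count minimum. *Slc13a5*, the plasma membrane citrate carrier, had mean counts of 72.3 and 321 and, on the log2 scale, a ratio of 2.07 (1.88 to 2.31). *Slc13a3*, the basolateral dicarboxylate carrier, stood at a log2 ratio of 0.81 (0.57 to 1.06), with mean counts of 71.0 and 130.3. In *Foxo1f/f* the levels of *Slc13a2* and *Slc13a5* per length were close, at 0.88 and 0.83, and in *Foxo1d/d* they were 0.04 and 3.54. An antisense gene covers 26.2% of the exon bases of *Slc13a2*, and whether counting used the strand is not given in the sources used here. Of the 7 glandular markers, 4 were called lower, from -6.56 for *Prss28* to -1.31 for *Ttr*, while *Cxcl15*, listed as *Il8*, was called higher at 0.96, and *Sox9* (-0.30) and *Foxa2* (0.04) were within 1.5-fold. The summed level of that list was 902 and 96.4 CPM, its most abundant gene per length was *Prss29*, and none of its genes was at 0. The part of gland cells in the lower members was not tested.

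Of the 20 carriers of this group that reached the count minimum, 3 were called in each direction (15%), beside 5.45% higher and 3.51% lower of all genes, and the median log2 ratio was -0.04. Besides the Slc13 genes, *Slc34a2*, a luminal sodium-phosphate cotransporter of lung and gut, was higher with a log2 ratio of 0.94 (0.66 to 1.25) and mean counts of 48.3 and 97.7. *Slc22a12*, a urate exchanger, was lower at -0.67 (-1.31 to -0.12) with mean counts of 21.3 and 13.7, and 30.6% of its exon bases also belong to *Nrxn2* on the other strand. The most abundant member of the group per length was *Slc22a17*, a receptor for lipocalin 2, at a log2 ratio of -0.04 (-0.09 to 0.01).

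Of the 7 exchangers of sodium for calcium above the minimum, 1 was called (14.3%), beside 8.96% of all genes in either direction. *Slc24a4*, a potassium-dependent exchanger of the plasma membrane, averaged 22 and 88 counts, which gives a log2 ratio of 1.89 (1.54 to 2.35). The most abundant per length over both genotypes was the gene listed as *Slc24a6*, now named *Slc8b1*, the exchanger of the inner mitochondrial membrane. Its levels were 20.5 and 17.4, with a log2 ratio of -0.24 (-0.30 to -0.18).

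**Figure D4:**
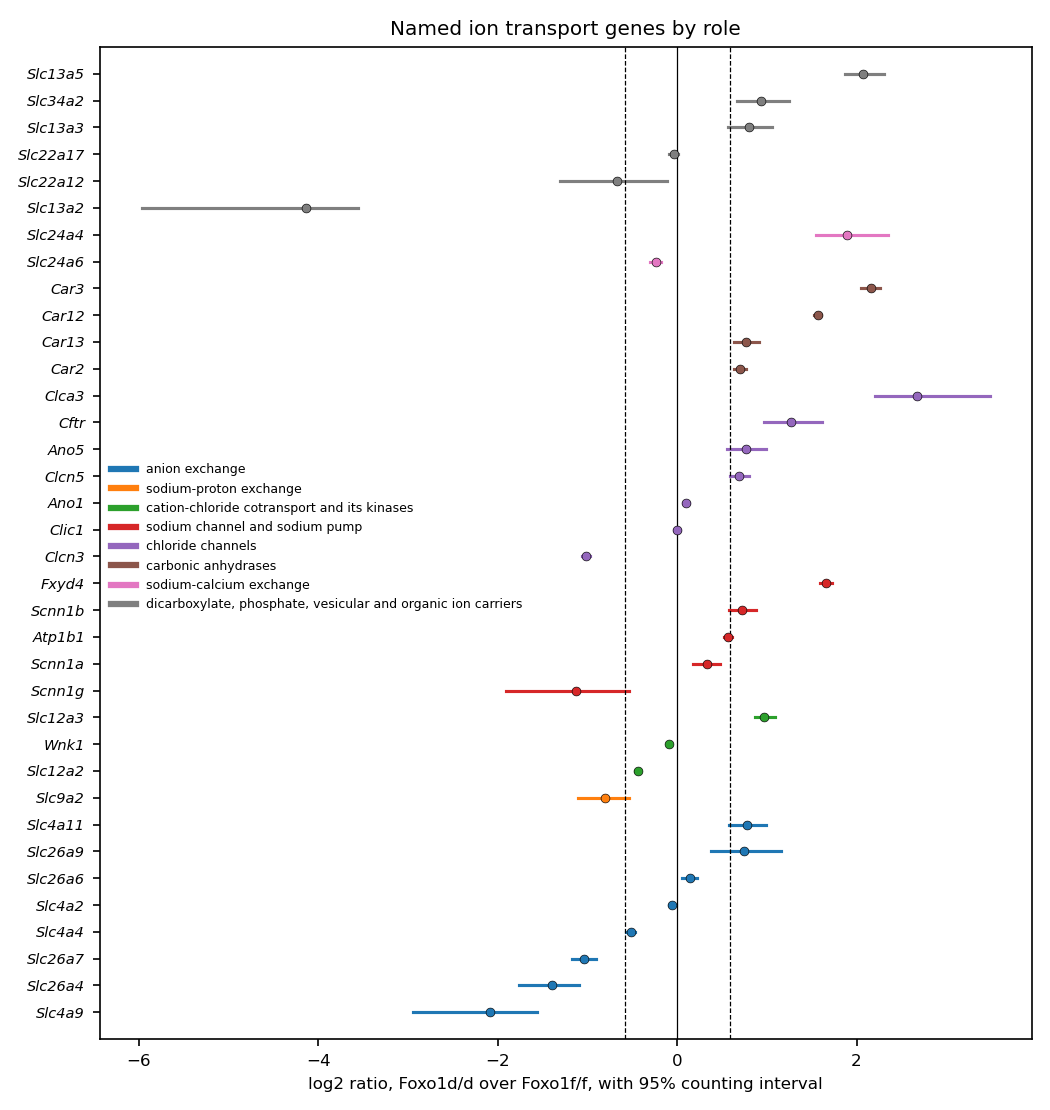
Log2 ratios (*Foxo1d/d* to *Foxo1f/f*) of the named members above the count minimum, by role (colours). Points are ratios with 1 added to each mean count, lines are exact 95% intervals for counting error only, and dashed lines mark 1.5-fold. *Slc13a2* at -4.14 has the longest line, and *Slc13a5* from the same family stands at 2.07.

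Above the count minimum, the highest ratios among the members belonged to *Clca3*, *Car3* and *Slc13a5*, the lowest to *Slc13a2*, *Slc4a9* and *Slc26a4*. Promoters are shown for *Slc13a5*, which has 2 entries, *Slc13a2* and *Slc26a4*, as examples from both ends of that order. Capitals mark matches to GTAAACA, the core of a forkhead site, or AGAACA, the core of a progesterone receptor site, on either strand. The single match among the 4 sequences is AGAACA on the reverse strand of the *Slc26a4* promoter. All of these promoters lie on the minus strand of GRCm38.p6 and are written 5′ to 3′ in the direction of the gene, and the starts listed for them lie from 47 to 691 bases inside the gene records. Those of *Slc13a5* span chr11:72267112-72267411 and chr11:72266555-72266854, that of *Slc13a2* spans chr11:78422185-78422484 and that of *Slc26a4* spans chr12:31559935-31560234.
Slc13a5, upstream entry: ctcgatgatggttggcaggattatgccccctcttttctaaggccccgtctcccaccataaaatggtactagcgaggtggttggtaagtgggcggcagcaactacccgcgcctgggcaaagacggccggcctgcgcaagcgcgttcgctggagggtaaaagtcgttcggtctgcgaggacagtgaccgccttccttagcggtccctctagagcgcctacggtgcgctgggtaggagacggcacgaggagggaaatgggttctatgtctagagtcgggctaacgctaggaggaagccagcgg
Slc13a5, downstream entry: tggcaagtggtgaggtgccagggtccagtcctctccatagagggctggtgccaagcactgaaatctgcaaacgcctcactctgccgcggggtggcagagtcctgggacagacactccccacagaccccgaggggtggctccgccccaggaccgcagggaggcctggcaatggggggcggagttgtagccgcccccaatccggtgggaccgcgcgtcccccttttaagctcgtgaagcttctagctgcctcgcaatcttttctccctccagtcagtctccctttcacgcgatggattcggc
Slc13a2: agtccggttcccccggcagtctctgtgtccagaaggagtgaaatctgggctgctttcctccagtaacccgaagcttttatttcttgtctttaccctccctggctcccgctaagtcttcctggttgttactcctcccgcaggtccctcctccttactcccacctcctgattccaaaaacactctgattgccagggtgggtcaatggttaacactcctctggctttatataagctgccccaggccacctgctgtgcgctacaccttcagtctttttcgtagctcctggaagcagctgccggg
Slc26a4: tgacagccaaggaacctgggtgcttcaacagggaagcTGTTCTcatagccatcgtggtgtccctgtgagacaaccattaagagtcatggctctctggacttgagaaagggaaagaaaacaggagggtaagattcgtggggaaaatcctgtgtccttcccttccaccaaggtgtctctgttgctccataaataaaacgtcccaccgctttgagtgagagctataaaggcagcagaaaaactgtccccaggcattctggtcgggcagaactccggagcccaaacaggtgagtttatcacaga

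Across the 32851 RefSeq promoters of 300 bases, GTAAACA occurred on either strand in 3.65% and AGAACA in 19%. RefSeq promoters were found for 122 of the 162 members, 150 in all. Of these 150, 4% held GTAAACA and 14% AGAACA. Among the members called higher, 14 promoters of 12 genes were at hand, of which 0 held GTAAACA and 1, of *Clcn5*, held AGAACA. Among the members called lower, 6 promoters of 5 genes were at hand, of which 0 held GTAAACA and 1, of *Slc26a4*, held AGAACA. These are matches of letters in a short window, not binding sites.

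Neighbouring members were found in 14 runs with no other protein-coding gene between them, which held 43 members. Of these, 24 reached the count minimum and 9 were called (37.5% of the 24), beside 22.7% of all members and 8.96% of all genes above the minimum. Besides the carbonic anhydrases, no run held more than 1 member called in the same direction. *Slc9a2* stands next to *Slc9a4* and *Ano5* next to *Slc17a6*, and in each pair the neighbour lay under the count minimum.

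Genes that regulate these transporters were followed as a list of 25 outside the rule, all of which reached the count minimum. Of these, 2 were called higher (8%) and 4 lower (16%), against 5.45% and 3.51% of all genes, with a median log2 ratio of -0.03. The higher genes belong to potassium channels that keep the cell negative while chloride leaves it. *Kcne1*, an accessory subunit, had mean counts of 7.33 and 36.3 and, on the log2 scale, a ratio of 2.10 (1.58 to 2.98), and *Kcnn4*, a calcium-activated channel, stood at a log2 ratio of 0.68 (0.44 to 0.94), with mean counts of 70.7 and 119. Among the lower genes were membrane proteases and an inhibitor of the kind that set how far the sodium channel is cleaved and so how open it is. *Tmprss4* averaged 1472 and 684 counts, a log2 ratio of -1.17 (-1.24 to -1.09), *Tmprss2* stood at -0.71 (-0.75 to -0.67), and the inhibitor *Spint1* averaged 2282 and 1278 counts, which gives a log2 ratio of -0.90 (-0.96 to -0.84). The proteases *Prss8* (-0.16) and *St14* (-0.41) and the inhibitor *Spint2* (-0.29) were within 1.5-fold.

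The genes of mineralocorticoid handling on the list were within 1.5-fold. *Nr3c2*, the mineralocorticoid receptor, had a log2 ratio of -0.08, its target *Sgk1*, the kinase that keeps the sodium channel at the surface, one of -0.21, and *Nedd4l*, the ubiquitin ligase that removes the channel, one of -0.20. *Hsd11b2*, which protects the receptor from corticosterone and was the most abundant gene of the list per length, had mean counts of 8517 and 12257 and, on the log2 scale, a ratio of 0.46 (0.44 to 0.49). The kinases *Stk39* (0.18) and *Oxsr1* (0.14), which pass the WNK signal to the cotransporters, were within 1.5-fold.

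Markers of cell types were set beside these genes. Of the 8 general epithelial markers 7 had a log2 ratio above 0, and only *Krt19* was called, at 1.22. Their summed level was 766 and 919 CPM, with *Cldn3* the most abundant per length. Of the 5 markers of luminal epithelium, *Calb1* (2.07), *Lpar3* (1.56) and *Wnt7a* (0.66) were called higher. That list's summed level was 125 and 268 CPM, with *Calb1*, the calcium-binding protein of the luminal cells, the most abundant per length. The 6 stromal markers were all within 1.5-fold, with summed levels of 10165 and 9985 CPM and *Col3a1* the most abundant per length. Endothelial markers had log2 ratios from -0.24 to -0.19 and summed levels of 1127 and 969 CPM, *Pecam1* being the most abundant per length. Of the 6 leukocyte markers *Cd3e* was called higher at 1.09, with summed levels of 290 and 353 CPM and *Cd68* the most abundant per length. No defining marker of these lists was at 0. Their part in the ratios of the transport genes was not tested.

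Markers of the remaining lists gave no common direction. Among 6 of nerve and glia, *Sox10* was called lower at -0.72, and the summed levels were 18.9 and 19.5 CPM. The 4 mesothelial markers were within 1.5-fold, at summed levels of 205 and 188 CPM, led per length by *Wt1*. The 4 markers of ciliated cells had summed levels of 18.8 and 16.7 CPM and *Ccdc39* the most abundant per length, and *Foxj1* was called higher at 0.88, with mean counts of 12.7 and 25.3.

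**Figure D5:**
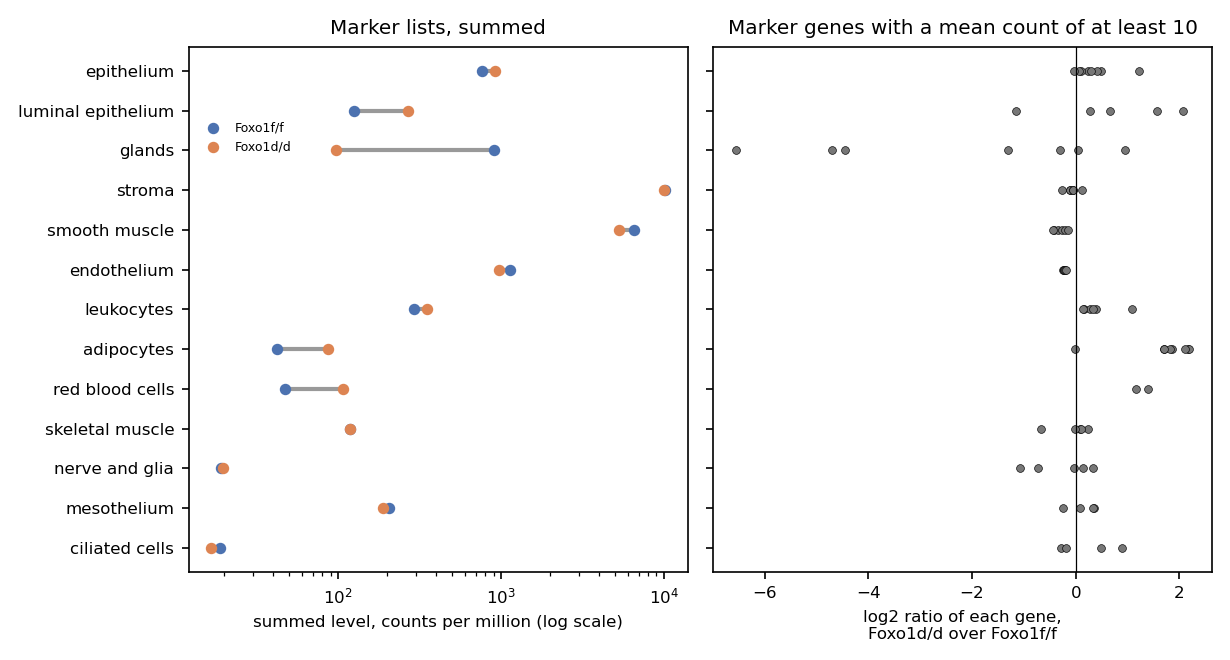
Left, the summed level of each marker list in CPM on a log axis, blue for *Foxo1f/f* and orange for *Foxo1d/d*. Right, the log2 ratio of each of its genes whose count averaged at least 10. The gland list has the longest line, from 902 to 96.4, and 7 of the adipocyte genes lie between 1.70 and 2.19.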

How the data were processed

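HTSeq counts per gene came from single libraries of 3 RNA pools per genotype. The authors deposited counts only as genotype means, with a fold change, an abundance and a p-value from edgeR that were not used. The submitters' notes name STAR, Picard, HTSeq and edgeR without versions and the build mm9, while the study's methods name mm10. Mean counts times 3 were whole numbers to within 0.000001 for every gene, which gave the summed counts. Ratios, exact counting intervals and lists were computed with Python 3.11.15, numpy 2.4.6, pandas 2.3.3 and scipy 1.17.1, and the steps were tested on simulated data. Exon lengths came from GENCODE vM21, gene order and promoters from RefSeq GRCm38.p6. Named members are the 27 called, the most abundant of each role per length and 15 genes listed by name, *Foxo1* among them. Others were chosen after their values were seen. Results on some of these genes are not reported here. The members and lists were chosen with earlier results of these data known. Other pseudocounts, scalings, count minimums and folds were tried.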

Additional observations from a re-analysis of the deposited data

How the results depend on the processing

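No paired analysis was possible because counts were deposited only as genotype means, so neither leaving out a library nor a replicate block could be run. Higher and lower counts of members, all genes and regulators kept within 1.5 times with a pseudocount of 0.1, ratios centred on the median gene and upper-quartile scaling. Without a filter on low counts, all genes held 1588 higher and 1135 lower, the members 21 lower, and the members' median log2 ratio was -0.0026. With a mean count of at least 50, there were 528 and 357 among all genes, 4 lower members, 1 higher regulator and a median of 0.0099. At 2-fold there were 316 higher and 220 lower genes, 7 higher members, and 1 higher and 1 lower regulator. At 1.3-fold there were 1597 and 1110 genes, 18 lower members and 4 higher regulators. Of 112 counts by role, 24 moved by more than 1.5 times. The carriers of organic anions and phosphate had 3 higher, 0 lower and a median of 0.0099 with a mean count of at least 50. Without the filter they had 6 higher and 9 lower. These counts follow from the wider or narrower thresholds themselves. The members' median was -0.006 when centred on the median gene and 0.0126 with upper-quartile scaling, so its sign was not stable. Of 126 log2 ratios of named members under other pseudocounts and scalings, 124 stayed within their counting interval, and *Clic1* alone changed sign. The largest move, 0.76 for *Slc9a3* with a pseudocount of 0.1, reflects its 3 and 1 summed counts. Depth limits members under a mean count of 10, and the spread between pools could not be measured.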
